A study of Schmidtea mediterranea with 12 samples.

Results

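FBP1 (dd_Smed_v6_1709_0_1), uroc1 (dd_Smed_v6_1655_0_1) and tdo2 (dd_Smed_v6_3550_0_1) are planarian transcripts whose best human matches are enzymes of glucose synthesis, histidine breakdown and tryptophan breakdown. They were chosen by transcript ID for these pathways and make up 3 of the 28069 transcripts in the count table. All 3 are among the 13136 transcripts that reached at least 1 CPM (counts divided by the library total and scaled up) in at least 4 of 12 libraries and were tested. Each of them also stands in the study's own list of transcripts enriched in the intestine, which was drawn from these same libraries, so their fold changes over non-intestine are a description and not independent evidence of that direction.

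The libraries came from 4 uninjured asexual adults of Schmidtea mediterranea, all of the clonal line CIW4, 6 to 9 mm long and starved for 7 days after a diet of beef liver paste. From eosin-stained cryosections of 20 µm, cut ahead of the pharynx, a laser freed medial intestine, lateral intestine and non-intestine, so that the tissues were told apart by their look and each animal gave 1 library of every tissue (4 libraries per tissue, 12 in all). No gene was altered and no treatment was compared. Each library was made from 5 ng of RNA with a kit that reads mRNA near its 3′ end, and a captured region held all cell types of that region, so that more cells expressing a gene and more RNA per cell cannot be told apart.

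In vertebrates the reactions of these enzymes run mainly in the liver. Fructose-1,6-bisphosphatase (FBP1) removes a phosphate from fructose bisphosphate on the way from pyruvate to glucose, against the direction of phosphofructokinase in glycolysis. Urocanate hydratase (UROC1) follows histidine ammonia-lyase in the breakdown of histidine, and tryptophan dioxygenase (TDO2) opens the ring of tryptophan and so starts the kynurenine pathway. Planarians have no liver, and their branched intestine digests food and stores nutrients.

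The libraries held 20227187 to 33296270 counted reads each. The 4 intestine markers, hnf-4, gata4/5/6, apob-1 and apob-2, were all called higher in both intestinal regions, and their summed level was 4922 to 7725 CPM in medial intestine and 5004 to 5961 CPM in lateral intestine, against 130.0 to 147 CPM in non-intestine. Of the 4 markers of other tissues, SLC18A3 was too low to test, and PCSK2 (neurons), TEKT2 (cilia) and PIWIL1 (stem cells) summed to 103 to 144 CPM in medial intestine and 125 to 204 CPM in lateral, against 321 to 371 CPM in non-intestine. All 3 were called lower in medial intestine, and PIWIL1 was not called in lateral intestine. PIWIL1 made up most of what remained in intestine, with means of 120.0 CPM (medial), 148 CPM (lateral) and 245 CPM (non-intestine). The normalization factors by TMM (trimmed mean of M values) were 0.765 to 0.923 in medial and 0.794 to 0.985 in lateral intestine, against 1.206 to 1.496 in non-intestine. The 10 most abundant transcripts took 36.9% to 45.5% of counts in medial and 35.7% to 48.6% in lateral intestine, against 26.9% to 35.7% in non-intestine. CPM below is TMM-normalized unless stated otherwise.

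FBP1 was present in all tissues, at a level in intestine between 2 and 3 times that in non-intestine. It had 112, 108, 160.2 and 90.8 CPM in the medial intestine of animals 1 to 4, and 127, 123, 164 and 131 CPM in their lateral intestine. Non-intestine of the same animals had 47.8, 49.6, 60.2 and 45.0 CPM. The lowest intestinal library, medial intestine of animal 4, stood above the highest non-intestinal library, animal 3, so that neither intestinal region overlapped with non-intestine. Of all transcripts tested, 18.4% lay above non-intestine without overlap in medial intestine and 18.7% in lateral intestine. The mean was 118 ± 29.7 CPM in medial intestine and 136 ± 18.8 CPM in lateral intestine, against 50.6 ± 6.63 CPM in non-intestine (SD, n = 4 each). In edgeR's quasi-likelihood test with the animal as a block, the log2 fold change was 1.20 ± 0.14 (SE) for medial intestine over non-intestine (adjusted p = 5.72e-05, Benjamini-Hochberg) and 1.43 ± 0.14 for lateral intestine over non-intestine (adjusted p = 1.79e-05). Each of the 4 animals showed this direction in both regions, and both comparisons use the same non-intestinal libraries.

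uroc1 was abundant in both intestinal regions and low in non-intestine. Its level was 333, 244, 410.3 and 361 CPM in medial intestine of animals 1 to 4 and 296, 273, 333 and 324 CPM in lateral intestine. In non-intestine it was 9.49, 8.34, 14.9 and 7.38 CPM. All 8 intestinal libraries thus lay more than 10 times above every non-intestinal one. The log2 fold change was 5.09 ± 0.20 for medial intestine over non-intestine, or 34.0-fold, and 4.97 ± 0.20 for lateral intestine over non-intestine, or 31.4-fold (edgeR, SE, adjusted p = 1.80e-08 and 2.22e-08). Of the 4 intestine markers, apob-1 and apob-2 had larger log2 fold changes in medial intestine over non-intestine than uroc1, at 5.87 and 6.14, and hnf-4 and gata4/5/6 had smaller ones, at 2.09 and 3.31. Their means in non-intestine were 53.3 CPM for apob-1, 40.7 CPM for apob-2, 41.3 CPM for hnf-4 and 2.498 CPM for gata4/5/6. Whether the uroc1 reads of non-intestine came from intestinal tissue in those captures was not tested.

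tdo2 was the least abundant of the 3 transcripts and was also low in every non-intestinal library. It had 20.8, 50.4, 29.2 and 33.6 CPM in medial intestine of animals 1 to 4 and 35.6, 53.0, 36.7 and 38.5 CPM in lateral intestine, against 1.39, 2.63, 2.77 and 1.21 CPM in non-intestine. The non-intestinal values rest on 42, 109, 85 and 36 reads. Animal 2 was the highest in both intestinal regions, and no intestinal library overlapped with non-intestine. The same held for 18.4% of all transcripts tested in medial and 18.7% in lateral intestine. The log2 fold change was 4.06 ± 0.28 for medial intestine over non-intestine, or 16.7-fold, and 4.40 ± 0.28 for lateral intestine over non-intestine, or 21.1-fold (edgeR, SE, adjusted p = 8.72e-07 and 5.84e-07).

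**Figure D1:**
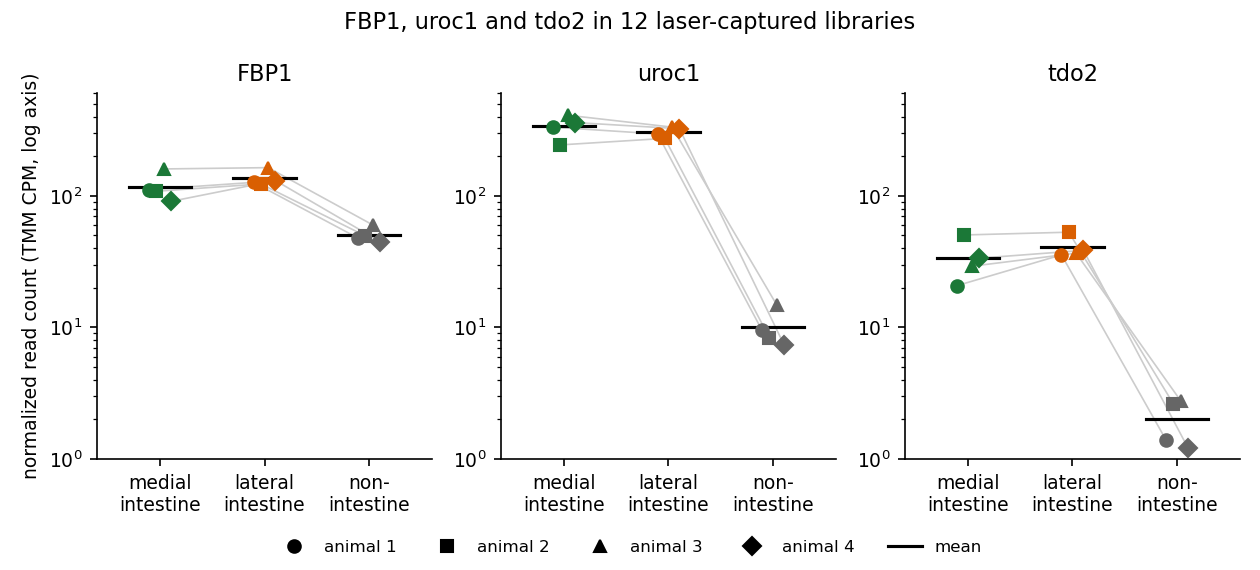
TMM-normalized CPM (log axis) of FBP1, uroc1 and tdo2 in medial intestine, lateral intestine and non-intestine; each symbol is the library of 1 animal, grey lines join the libraries of an animal and black bars are means. FBP1 means were 118, 136 and 50.6 CPM in that order, uroc1 means 337, 307 and 10.0 CPM and tdo2 means 33.5, 40.9 and 2.00 CPM.

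All 3 transcripts were called higher in medial intestine, where 12.1% of all transcripts tested were called higher (adjusted p under 0.01 and fold change above 2), and all 3 in lateral intestine, where 11.3% were. Because the study had listed all 3 as enriched, this count says nothing further about them. The order of the tissues for FBP1 and tdo2 was lateral intestine, medial intestine and non-intestine, and for uroc1 medial intestine, lateral intestine and non-intestine, and in each case the intestinal regions overlapped.

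Between the intestinal regions none of the 3 was called. FBP1 had a log2 fold change of -0.23 ± 0.14 for medial over lateral intestine (edgeR, SE, adjusted p = 0.837) and was lower in medial intestine of all 4 animals. uroc1 had a log2 fold change of 0.11 ± 0.17 (adjusted p = 0.974) and was higher in medial intestine of 3 of 4 animals. tdo2 had a log2 fold change of -0.34 ± 0.24 (adjusted p = 0.881) and was lower in medial intestine of all 4 animals. None reached an unadjusted p under 0.05 in edgeR, and 0 were called by the likelihood ratio test or DESeq2. Over all transcripts tested, 0.152% were called higher and 0.099% lower in medial than in lateral intestine (adjusted p under 0.01 and fold change above 1.5).

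The call of FBP1 depended on how the libraries were scaled, while those of uroc1 and tdo2 did not. With library totals in place of TMM, FBP1 had 89.0, 99.9, 122 and 80.6 CPM in medial intestine and 100.5, 121, 133 and 118 CPM in lateral intestine, against 71.1, 63.7, 89.7 and 54.1 CPM in non-intestine. On this scale the medial libraries overlapped with non-intestine and the lateral libraries did not. The log2 fold change was then 0.49 for medial intestine over non-intestine (edgeR, adjusted p = 0.0316) and 0.78 for lateral intestine over non-intestine (adjusted p = 0.00378), and neither passed the 2-fold threshold. The median of all transcripts moved as well, to -0.98 and -0.83 without TMM, against -0.28 and -0.19 with it, so that FBP1 stood 1.47 and 1.61 above the median without TMM and 1.48 and 1.61 above it with TMM. With size factors by relative log expression (RLE), FBP1 stayed called, at 1.02 for medial and 1.26 for lateral intestine. Without non-intestine of animal 3, the log2 fold change in medial intestine was 0.99 and just missed the 2-fold threshold (edgeR, adjusted p = 0.00132).

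**Figure D2:**
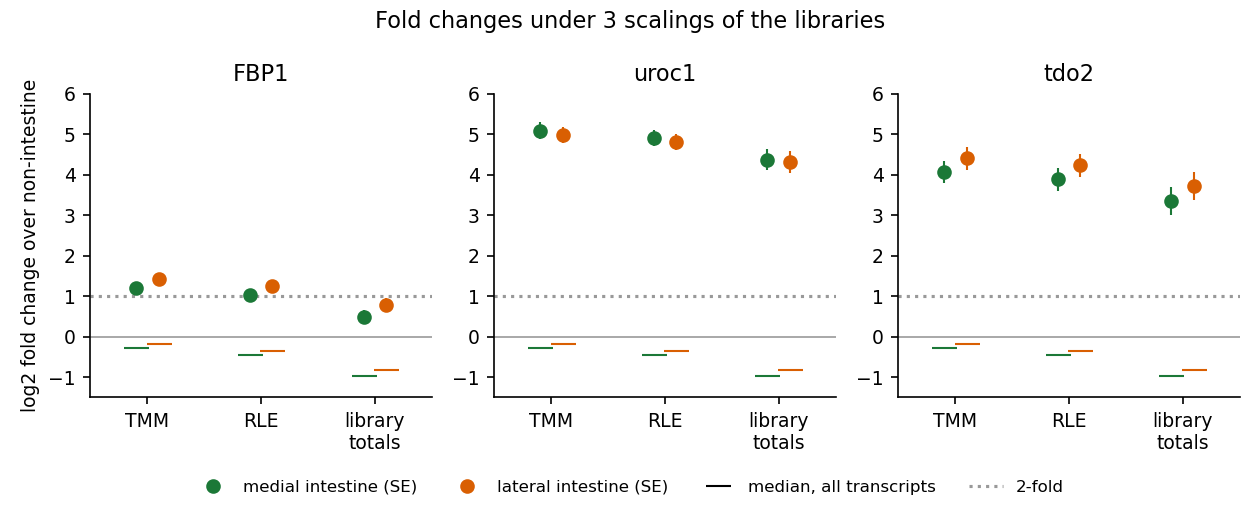
Log2 fold changes over non-intestine (edgeR, error bars SE) of FBP1, uroc1 and tdo2 under TMM, RLE and library totals, for medial and lateral intestine; dashes are the median over all transcripts tested and the dotted line is a 2-fold change. FBP1 fell below the line with library totals (0.49 and 0.78), whereas uroc1 (4.37 and 4.31) and tdo2 (3.35 and 3.72) stayed above it.

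The deposited TPM values, which scale each library to the same sum, divide by transcript length and are not TMM-scaled, allow levels to be set side by side between transcripts, although reads from 3′ ends do not grow with length. uroc1 had 106 ± 16.9 TPM in medial and 102 ± 3.72 TPM in lateral intestine, and FBP1 had 77.8 ± 15.9 and 95.7 ± 10.0 TPM (SD, n = 4). In non-intestine FBP1 had 72.5 ± 11.6 TPM and uroc1 6.84 ± 2.45 TPM. tdo2 had 19.0 ± 7.79 TPM in medial and 24.7 ± 6.45 TPM in lateral intestine, against 2.43 ± 0.982 TPM in non-intestine. uroc1 thus ranked above 95.01% of the 13136 transcripts with a TPM in medial intestine and above 46.3% in non-intestine, tdo2 above 81.3% and 21.2%, and FBP1 above 93.7% and 89.2%.

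The fold changes of the 3 transcripts differed from each other within every animal. The log2 ratio of medial intestine to non-intestine was larger for uroc1 than for FBP1 by 3.91 ± 0.51 (SD over 4 animals) and larger for tdo2 than for FBP1 by 2.89 ± 0.76. For lateral intestine these differences were 3.56 ± 0.38 for uroc1 and 3.00 ± 0.51 for tdo2. Between tdo2 and uroc1 the difference was -1.01 ± 0.36 for medial and -0.55 ± 0.22 for lateral intestine, with tdo2 the smaller. Each of these 6 differences had the same sign in all 4 animals, with p = 0.125 in a two-sided exact sign-flip permutation test, the smallest value that 4 animals allow (adjusted p = 0.161 over the 9 differences tested). A scaling factor acts on all transcripts of a library alike and so cancels here.

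FBP1 was then set against PFKM (dd_1604), the best match of phosphofructokinase, whose reaction runs the opposite way. PFKM was at 66.4, 87.6, 65.2 and 79.5 CPM in medial and 98.4, 104, 60.4 and 83.5 CPM in lateral intestine of animals 1 to 4, against 80.3, 79.3, 60.2 and 73.9 CPM in non-intestine. The tissues overlapped, and the log2 fold changes of 0.03 ± 0.15 and 0.22 ± 0.15 over non-intestine were not called (edgeR, SE, adjusted p = 0.908 and 0.315). The ratio of FBP1 to PFKM in TPM was 4.38, 3.22, 6.40 and 2.97 in medial intestine and 3.35, 3.08, 7.06 and 4.07 in lateral intestine, against 1.55, 1.63, 2.60 and 1.58 in non-intestine. Animal 3 had the highest ratio in every tissue, and every intestinal ratio was above every non-intestinal one. On the log2 scale the ratio was higher by 1.17 ± 0.28 in medial intestine over non-intestine and by 1.21 ± 0.24 in lateral intestine over non-intestine (SD, 4 of 4 animals, p = 0.125 in the two-sided exact sign-flip permutation test, the smallest it can give; adjusted p = 0.188 over 3 comparisons). The study listed FBP1 as enriched in the intestine from these same libraries, so the direction of this ratio is not independent evidence. The ratio needs no scaling between libraries. Its size rests on division by length (1089 bases for FBP1, 2836 for PFKM), although reads from 3′ ends do not grow with length. In reads, FBP1 had 6676 and PFKM 9745 over non-intestine, 9240 and 6031 over medial intestine, and 12924 and 7990 over lateral intestine. The ratio can thus be compared between tissues but does not show which transcript was more abundant. Between medial and lateral intestine the ratio differed by -0.04 ± 0.35 (2 of 4 animals higher in medial, exact permutation p = 0.75).

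**Figure D3:**
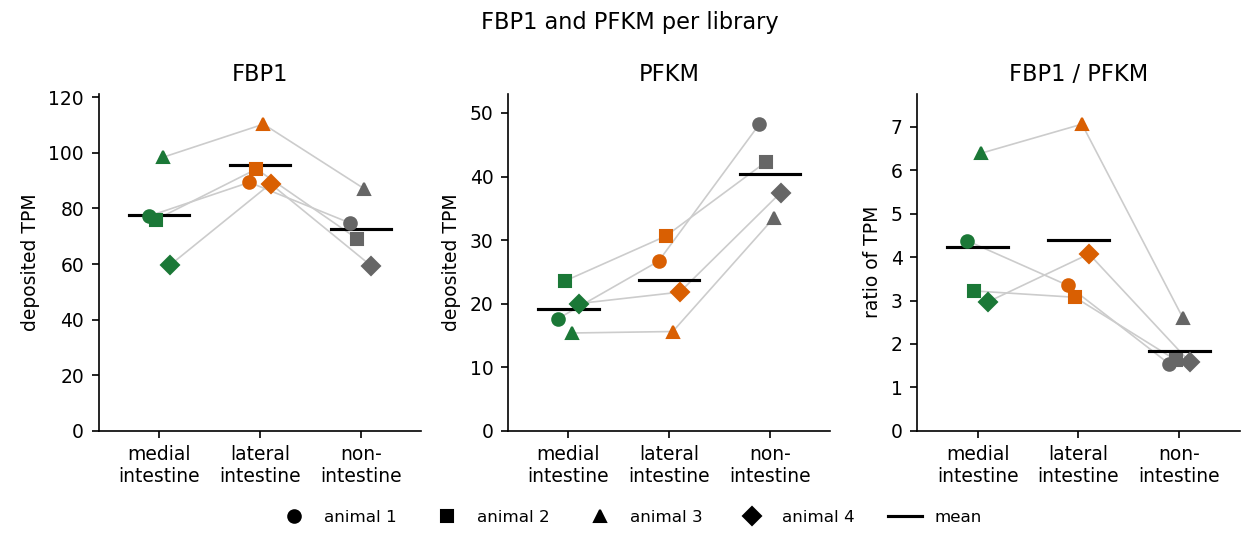
Deposited TPM of FBP1 and of PFKM and their ratio in medial intestine, lateral intestine and non-intestine; each symbol is the library of 1 animal, grey lines join the libraries of an animal and black bars are means. FBP1 in TPM overlapped between medial intestine and non-intestine, while the ratio was 2.97 to 6.40 in medial and 3.08 to 7.06 in lateral intestine, against 1.55 to 2.60 in non-intestine. The size of the ratio depends on transcript length, so it compares tissues and not FBP1 with PFKM.

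The other transcripts of glucose synthesis and glycolysis did not share 1 direction. Of 12 transcripts in the list, FBP1 included, 5 were called higher in medial and 5 in lateral intestine, and 0 were called lower in medial and 1 in lateral intestine (DESeq2 called 1 and the likelihood ratio test 0 lower in medial intestine, where 3 were lower at an unadjusted p under 0.05 in edgeR). Over all transcripts tested, 12.1% were called higher and 9.49% lower in medial intestine, and 11.3% higher and 7.58% lower in lateral. The median log2 fold change was 0.45 in medial and 0.50 in lateral intestine, against -0.28 and -0.19 over all transcripts. 2 of the 5, ALDOC and PFKFB4, entered the list through the study's table of intestine-enriched transcripts, and without that source 3 of 10 were called higher in each region. SORD, MPC1, PDHA1 and PFKFB4 carry out no step of either pathway, and SORD, MPC1 and PFKFB4 were among the 5 called higher. The counts and medians of the list therefore cover more than these pathways.

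Of the 3 listed enzymes of glucose synthesis that do not act in glycolysis, only FBP1 was called with TMM or RLE. With library totals PC was called lower in both regions and FBP1 in neither. Pyruvate carboxylase (PC, dd_2393), which makes oxaloacetate, averaged 21.0 ± 8.35 CPM in medial intestine and 24.4 ± 5.65 CPM in lateral, against 33.7 ± 5.87 CPM in non-intestine, and was lower in intestine of all 4 animals in both regions without being called (edgeR, log2 fold change -0.70, adjusted p = 0.0587 in medial intestine). Phosphoenolpyruvate carboxykinase (PCK1, dd_196) was far more abundant and averaged 478 ± 123 CPM in medial intestine and 462 ± 88.5 CPM in lateral, against 383 ± 61.5 CPM in non-intestine, with overlapping libraries and no call. No transcript for glucose-6-phosphatase was in the list. The list was named from tables held only in part, so this does not show that the animal lacks such a transcript.

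Aldolase (ALDOC, dd_398), which splits and joins fructose bisphosphate, was called higher as FBP1 was. It had 605, 525, 774 and 638 CPM in medial and 730, 582, 605 and 995 CPM in lateral intestine, against 191, 194.5, 177 and 319.8 CPM in non-intestine, so that no intestinal library reached down to non-intestine (edgeR, log2 fold change 1.57 ± 0.18 and 1.73 ± 0.18, SE). Such a separation was found for 18.4% of all transcripts tested in medial and 18.7% in lateral intestine. PFKFB4 (dd_3959) makes and breaks a fructose bisphosphate other than the substrate of FBP1, which inhibits FBP1 in vertebrates. PFKFB4 averaged 26.0 ± 7.97 CPM in medial intestine and 23.2 ± 0.985 CPM in lateral, against 7.28 ± 1.32 CPM in non-intestine (log2 fold change 1.81 and 1.66). SORD (dd_1002), sorbitol dehydrogenase, had the largest change of the list, with 339.6 ± 32.7 CPM in medial intestine and 319.7 ± 60.5 CPM in lateral intestine, against 53.1 ± 6.09 CPM in non-intestine (log2 fold change 2.68 and 2.58). MPC1 (dd_2127), a mitochondrial pyruvate carrier subunit, was called at 1.12 and 1.18 and lost its call in 19 of 25 other settings in medial and in 13 in lateral intestine, among them RLE and the removal of any 1 non-intestinal library.

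Of the remaining transcripts of the list PGAM2 was called lower with TMM, and TPI1 also with library totals in medial intestine. PGAM2 (dd_1742), phosphoglycerate mutase, had 82.8, 87.5, 95.6 and 79.7 CPM in medial and 89.9, 68.6, 96.3 and 83.9 CPM in lateral intestine, against 152, 172, 171 and 182 CPM in non-intestine. No library overlapped, and its log2 fold changes of -0.97 and -1.01 lay on either side of the 2-fold threshold, so that it was called lower in lateral intestine alone (edgeR, adjusted p = 0.00037 and 0.000336). Of all transcripts tested, 26.5% lay below non-intestine without overlap in medial and 24.4% in lateral intestine. PGAM2 was called lower in medial intestine in 12 of 25 other settings, RLE, DESeq2 and library totals among them, and lost its call in lateral intestine in 6. GPI (dd_1398, glucose-6-phosphate isomerase), TPI1 (dd_1402, triosephosphate isomerase) and PDHA1 (dd_1310, of the pyruvate dehydrogenase complex) were called in neither region with TMM.

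With library totals in place of TMM, 1 of the 12 transcripts was called higher in medial and 2 in lateral intestine. Without non-intestine of animal 3, 3 were called higher in medial intestine, and without animal 3 altogether, 3 in lateral intestine.

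Histidine breakdown was represented by 4 transcripts, all called higher in both regions, where 12.1% (medial) and 11.3% (lateral) of all transcripts tested were. With 4 transcripts this list, too, is too short to set against these shares. HAL (dd_2219), histidine ammonia-lyase, makes the urocanate that uroc1 uses. It had 208, 148, 191 and 209 CPM in medial and 164, 188, 191 and 156 CPM in lateral intestine, against 2.09, 4.37, 3.81 and 3.37 CPM in non-intestine. The non-intestinal libraries were all far below the others, with log2 fold changes of 5.82 ± 0.26 and 5.69 ± 0.26 (edgeR, SE, adjusted p = 3.70e-08 and 4.27e-08). AMDHD1 (dd_5220), imidazolonepropionase, takes the product of uroc1 further and averaged 92.4 ± 18.3 CPM in medial intestine and 98.2 ± 9.86 CPM in lateral, against 10.1 ± 1.62 CPM in non-intestine (log2 fold change 3.18 and 3.27). Another HAL-like transcript, dd_2970, was at 6.17, 9.57, 6.83 and 0.532 CPM in medial and 9.45, 6.72, 8.51 and 9.75 CPM in lateral intestine, against 0.166, 0.241, 0.13 and 0.944 CPM in non-intestine. In animal 4 its medial library was below its non-intestinal one, and its call was lost in 16 of 25 other settings in medial and in 9 in lateral intestine. The 4 transcripts had median log2 fold changes of 4.63 and 4.83, and AMDHD1 and dd_2970 are in the list because the study named them as enriched in the intestine.

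Tryptophan breakdown was represented by 11 transcripts, of which 10 could be tested and 8 were called higher in each region, with 0 lower, also at an unadjusted p under 0.05 in edgeR and in DESeq2 and the likelihood ratio test. Of all transcripts tested, 12.1% were called higher and 9.49% lower in medial intestine, and 11.3% higher and 7.58% lower in lateral intestine. With library totals 6 of the 10 were called higher in medial and 7 in lateral intestine. The median log2 fold change was 2.77 in medial and 2.99 in lateral intestine. 8 of the 10, tdo2 among them, were in the list because of the study's table of intestine-enriched transcripts, so this count is not independent evidence, and of the other 2, AFMID (dd_12523) and ALDH8A1 (dd_1621), both were called. IDO2 (dd_13826), the best match of the dioxygenase that carries out the same reaction as TDO2, was too low to test, with 8 reads (medial), 58 reads (lateral) and 114 reads (non-intestine) over 4 libraries each.

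Down the pathway, the size of the change was uneven. AFMID, kynurenine formamidase, acts next after tdo2 and averaged 10.8 ± 2.00 CPM in medial intestine and 13.6 ± 1.92 CPM in lateral, against 1.61 ± 0.837 CPM in non-intestine (log2 fold change 2.81 and 3.18). KMO (dd_6831), kynurenine 3-monooxygenase, changed less, with 25.3 ± 4.20 CPM in medial intestine and 37.8 ± 12.8 CPM in lateral, against 10.2 ± 1.62 CPM in non-intestine (log2 fold change 1.32 and 1.85). KYNU (dd_10866), kynureninase, followed at 2.74 and 2.79.

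The largest changes stood at the next steps. HAAO (dd_3032), which opens the ring of 3-hydroxyanthranilate, had 126, 103, 82.1 and 106 CPM in medial and 89.5, 118, 105 and 73.3 CPM in lateral intestine, against 0.598, 1.09, 2.18 and 0.809 CPM in non-intestine. ACMSD (dd_8766), the decarboxylase that acts on the product of HAAO, had 18.1 to 29.2 CPM in medial intestine and 17.8 to 23.3 CPM in lateral, against 0, 0.772, 0.163 and 0.573 CPM in non-intestine. ALDH8A1, the aldehyde dehydrogenase after ACMSD, varied widely between animals, with 178, 102, 43.5 and 125 CPM in medial and 44.1, 221, 184 and 53.2 CPM in lateral intestine, against 0.266, 0.748, 1.08 and 0.472 CPM in non-intestine. Their log2 fold changes in medial and lateral intestine over non-intestine were 6.57 and 6.41 for HAAO, 6.07 and 5.97 for ACMSD, and 7.65 and 7.49 for ALDH8A1 (edgeR, SE 0.38 to 0.76).

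GCDH (dd_4416), glutaryl-CoA dehydrogenase, was called at 1.22 and 1.02, close to the 2-fold threshold, and lost its call in lateral intestine in 13 of 25 other settings. DHTKD1 (dd_7384), which acts on 2-oxoadipate, and a further AFMID-like transcript (dd_8282) were not called, at log2 fold changes of 1.22 and 1.26 for DHTKD1 and 1.32 and 1.25 for dd_8282 (adjusted p = 0.0129 to 0.0173, edgeR's quasi-likelihood test). The likelihood ratio test, with the block and without it, called both higher in both regions.

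Tyrosine breakdown, the other amino acid pathway of vertebrate liver examined, had no common direction. Of its 4 transcripts 0 were called higher in medial intestine, where 2 were higher and 1 lower at an unadjusted p under 0.05 in edgeR and DESeq2 and the likelihood ratio test also called 0 higher. In lateral intestine 1 was called higher. Over all transcripts tested, 12.1% were called higher and 9.49% lower in medial intestine, and 11.3% higher and 7.58% lower in lateral. A list of 4 transcripts is too short to set against these shares. TAT (dd_1073), tyrosine aminotransferase, which opens the pathway, was called lower in both regions. It had 24.6, 28.9, 15.9 and 15.6 CPM in medial and 43.1, 52.0, 37.8 and 28.2 CPM in lateral intestine, against 82.2, 93.8, 92.5 and 77.0 CPM in non-intestine. Non-intestine was highest in every animal, with log2 fold changes of -2.07 ± 0.19 and -1.14 ± 0.18 (edgeR, SE, adjusted p = 7.76e-06 and 0.000606). Medial intestine was below lateral intestine in all 4 animals, by -0.93 ± 0.18 on the log2 scale, which missed the threshold (edgeR, adjusted p = 0.0541) and passed it in DESeq2 (adjusted p = 0.00068) and in the likelihood ratio test with the animal as a block (adjusted p = 0.00275).

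HGD (dd_2908), homogentisate dioxygenase, was the transcript called higher in lateral intestine, and its call was lost in 11 of 25 other settings. It averaged 18.9 ± 9.32 CPM in medial intestine and 23.5 ± 6.92 CPM in lateral, against 9.30 ± 3.70 CPM in non-intestine. HPD (dd_1114), which makes homogentisate, and GSTZ1 (dd_1703), which acts late in the pathway, were called in neither region.

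**Figure D4:**
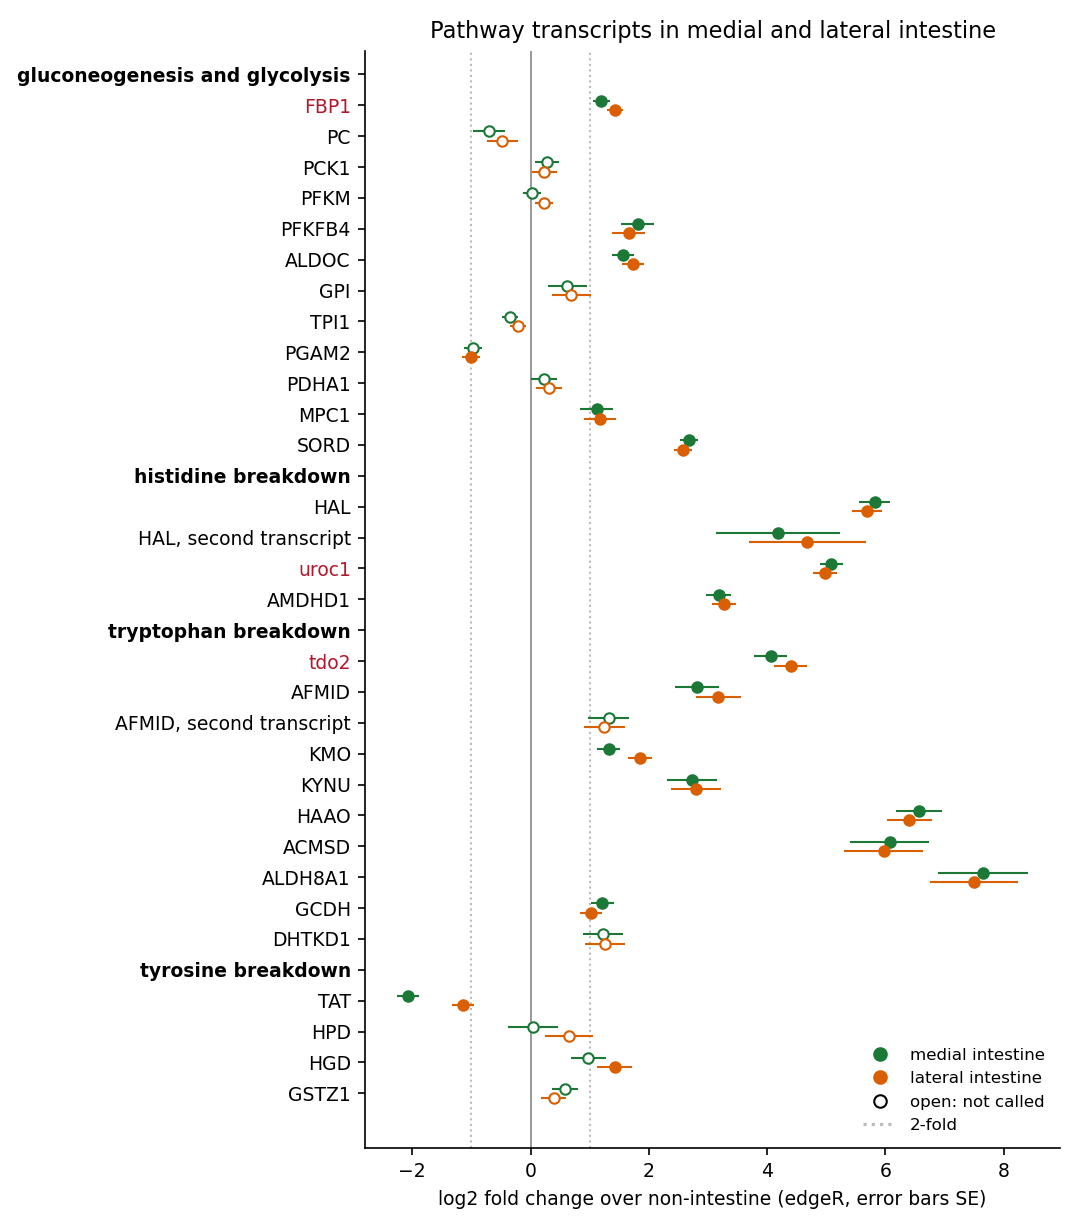
Log2 fold changes over non-intestine (edgeR, error bars SE) in medial and lateral intestine for the 30 tested transcripts of 4 pathway lists; filled circles were called, open circles were not, and dotted lines mark a 2-fold change either way. Histidine breakdown (median 4.63 and 4.83) and tryptophan breakdown (median 2.77 and 2.99) lie to the right, glucose synthesis and glycolysis (median 0.45 and 0.50) on both sides of 0, and TAT of tyrosine breakdown at -2.07 and -1.14.

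A broader list held 43 transcripts whose best human match has raised expression in liver by the annotation in the study's tables, which are held here only in part. FBP1 and uroc1 are among them. tdo2 is not, but with the tables held only in part this does not show that its human match lacks raised expression in liver. Of the 43, 30 could be tested, 16 were called higher and 1 was called lower in each region, and 13 were not called. The shares over all transcripts tested were 12.1% higher and 9.49% lower in medial and 11.3% higher and 7.58% lower in lateral intestine. The median log2 fold change was 1.13 in medial and 1.35 in lateral intestine, against -0.28 and -0.19 over all transcripts, and without FBP1 and uroc1 14 of 28 were called higher with medians of 0.95 and 1.09. The 3 transcripts with the highest mean change were ALDH8A1, SEC14L4 (dd_12821) and HAL. SEC14L4, a lipid-binding protein, averaged 6.93 and 7.87 CPM in medial and lateral intestine, against 0.141 CPM in non-intestine. The lowest 3 were SEC14L2 (dd_11513), ONECUT1 (dd_16472) and GCH1 (dd_11172), which edgeR's quasi-likelihood test did not call in either region, whereas DESeq2 called all 3 lower in lateral intestine (adjusted p = 0.0023 to 0.0034) and SEC14L2 also in medial intestine.

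SEC14L2, of the same family as SEC14L4, had 0 reads in every medial library and 19, 0, 0 and 0 reads in lateral intestine, against 76, 136, 103 and 109 reads in non-intestine. Set against a limit of 3 reads over the medial libraries, it was at least 86.3-fold lower in medial intestine than in non-intestine. It missed the threshold in edgeR's quasi-likelihood test (adjusted p = 0.0135) and passed it in DESeq2 (adjusted p = 0.000106). ONECUT1, a transcription factor, had 13 and 5 reads in all in medial and lateral intestine, against 198 in non-intestine. GCH1, which begins the synthesis of tetrahydrobiopterin, averaged 1.08 and 0.661 CPM in medial and lateral intestine, against 6.58 CPM in non-intestine.

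Among proteins that human liver secretes into blood, the best matches of ALB (albumin), APOA1 and ITIH1 had 0 reads in all 12 libraries. Other matches of such proteins had reads, among them apob-1 and apob-2. A count of 0 over the 4 libraries of a tissue allows up to 0.0372 CPM in medial intestine, 0.0319 CPM in lateral intestine and 0.0227 CPM in non-intestine (3 reads, counting error only). Expression at or below these limits could not be detected at this depth. The matches of APOA1 and ITIH1 are only 252 and 207 bases long. Whether they hold the 3′ end that the kit reads was not tested, so their 0 reads do not show that these genes were silent.

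**Figure D5:**
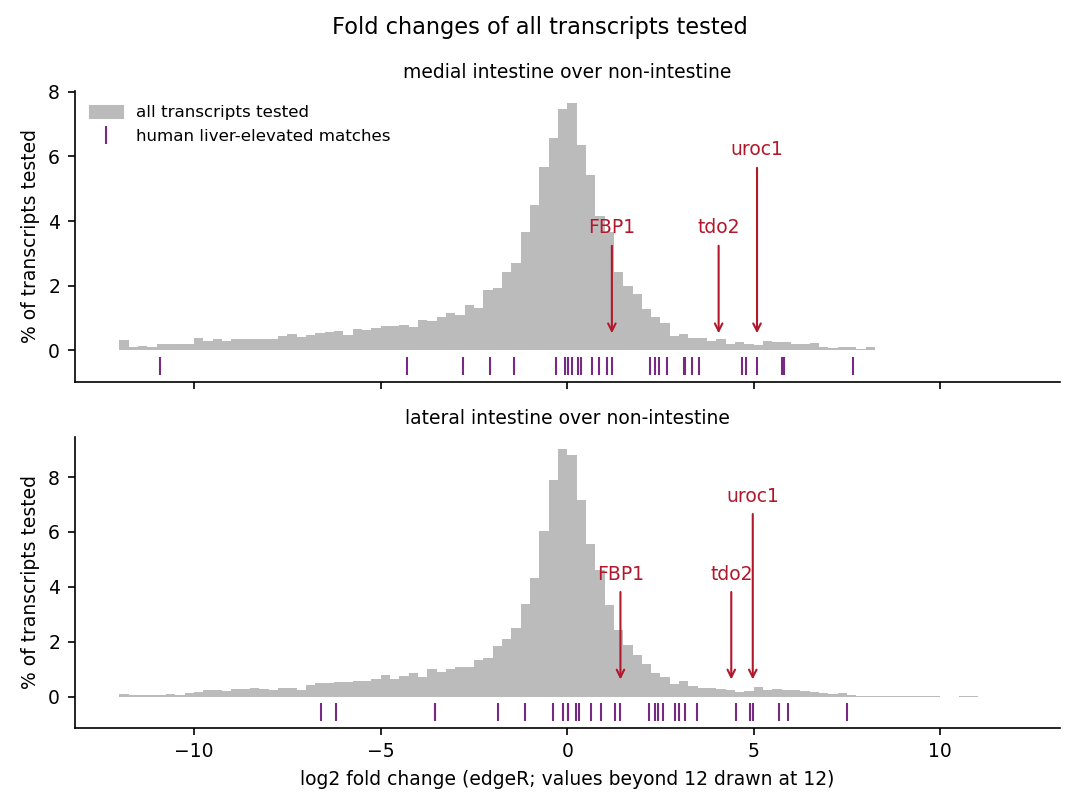
Distribution of log2 fold changes (edgeR) over all 13136 transcripts tested, as % of transcripts per bin, for medial and lateral intestine over non-intestine; arrows mark FBP1, tdo2 and uroc1, and ticks below mark 30 liver-elevated matches. uroc1 (5.09 and 4.97) and tdo2 (4.06 and 4.40) lie in the right tail, FBP1 (1.20 and 1.43) nearer the centre; the leftmost tick, SEC14L2, had 0 reads in medial intestine, so its position there is no measure of size.

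Over the 12 libraries, the 3 transcripts followed each other, as the difference between intestine and non-intestine is common to all. Pearson's r of log2(CPM + 0.5) was 0.947 between FBP1 and uroc1, 0.925 between FBP1 and tdo2 and 0.968 between uroc1 and tdo2. After the mean of each tissue was removed, r was 0.593, 0.026 and -0.018 in the same order. These values describe 12 libraries from 4 animals, share the TMM factors and carry no test.

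The transcripts most like each of the 3, among 13135 others, had higher means in both intestinal regions than in non-intestine as well. For uroc1 these were dd_2564 (r = 0.998), CTSC (dd_219), dd_6652, PRKAR2B (dd_1362) and TGFBI (dd_1505), the last 4 at r = 0.997. CTSC is a lysosomal peptidase and PRKAR2B a regulatory subunit of protein kinase A. For tdo2 they included ABCG2 (dd_8560, r = 0.988), PLA2G15 (dd_7286, 0.987), dd_4567 (0.987) and SLC52A3 (dd_11730, 0.986). PLA2G15 is a lysosomal enzyme, ABCG2 is an efflux transporter and SLC52A3 carries riboflavin. The best matches of FBP1 were less close, namely dd_9963 (r = 0.977), dd_2042 (0.970), GLTPD1 (dd_7369, 0.968), MFN2 (dd_5932, 0.966) and dd_18043 (0.965). MFN2 acts in the fusion of mitochondria, and GLTPD1 transfers lipids.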

How the data were processed

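Reads were trimmed with BBDuk and aligned to the dd_Smed_v6 transcripts with Bowtie2 2.3.1 by the authors, and the deposited counts are reads per transcript from SAMtools 1.3, neither normalized nor pooled. The deposited TPM values were computed by the authors from those counts after their low-count filter with edgeR 3.8.6, and they cover 13136 transcripts. Transcript lengths in bases come from the deposited count table. The deposited CPM and RPKM (24 columns) and 10 columns of the authors' own comparisons (log2 fold changes, mean CPM, likelihood ratios, p-values and FDR) were not used.

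Analyses used edgeR 4.0.16, limma 3.58.1 and DESeq2 1.42.0 under R 4.3.3, and scipy 1.17.1, numpy 2.4.6, pandas 2.3.3 and matplotlib 3.10.9 under Python 3.11.15. A transcript entered the fit if 4 or more of the 12 libraries had 1 CPM or more (13136 of 28069, 46.8%). TMM factors were applied, and a quasi-likelihood model with tissue and animal was fitted to all libraries at once, since the 3 tissues came from the same 4 animals. The study used a likelihood ratio test with no block stated. The common biological coefficient of variation was 0.636. A transcript was called at an adjusted p (Benjamini-Hochberg over all 13136) under 0.01 and a fold change above 2 over non-intestine, or above 1.5 between medial and lateral intestine. SEs are approximate, from the log2 fold change and its F value. Libraries of the same animal deviated from their tissue means with correlations of -0.009 to 0.217, above 0 in 11 of 12 pairs. The model was tested on simulated data first.

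The 3 transcripts and the pathway, liver and marker lists were chosen with earlier results of these data known. Named transcripts were the 3, all members of the pathway, marker and secreted protein lists, the 3 highest and 3 lowest of the liver-elevated list by mean log2 fold change, and the 5 most correlated with each of the 3. Some of these are not reported here. Human names come from the study's tables, of which some are held only in part. Transcripts whose reads could be split with a near-identical copy, such as the HAL-like and AFMID-like pairs, are uncertain. No sequence is shown, as none was used here. Alternatives were RLE factors, library totals without TMM, no or a stricter (5 CPM) low-count filter, the likelihood ratio test, DESeq2, no block, only the tissues compared, and leaving out each library or animal.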

Additional observations from a re-analysis of the deposited data

Results flagged for a closer look

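In 7 of 90 groups of 4 libraries, 1 library stood apart from the other 3 by more than Dixon's 95% limit, and chance gives about 1 in 20 such groups. Of the 3 transcripts, this concerned tdo2 in lateral intestine, where animal 2 had 53.0 CPM and the others 35.6 to 38.5 CPM. In non-intestine of animal 4, ALDOC had 320.0 CPM (others 177 to 194.5), the HAL-like dd_2970 had 0.944 CPM (others 0.13 to 0.241) and GSTZ1 had 13.2 CPM (others 21.5 to 22.6). In lateral intestine of animal 1, PDHA1 had 60.6 CPM (others 80.7 to 84.7) and GCDH had 26.6 CPM (others 30.3 to 30.8). In medial intestine of animal 2, TPI1 had 95.1 CPM, and the other 3 libraries had 117 CPM each. No difference between medial and lateral intestine passed the threshold among these transcripts.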

How the results depend on the processing

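FBP1, uroc1 and tdo2 were refitted under 25 alternatives, of which library totals without TMM and the likelihood ratio test without the block were chosen after seeing the data. The direction reversed in 0 of their 225 recomputed values, and 222 stayed on the same side of the threshold. The exceptions were FBP1 with library totals, at 0.49 in medial and 0.78 in lateral intestine over non-intestine, and FBP1 in medial intestine without non-intestine replicate 3. With single libraries or animals left out, FBP1 in medial intestine ran between 0.99 and 1.28. Without the replicate block, no call of the 3 transcripts changed (FBP1 1.22 and 1.43), 21 transcripts were called lower in medial than in lateral intestine against 13 with the block, and 0 of the tyrosine transcripts were called higher in lateral intestine. Library totals without TMM gave 887 higher and 2597 lower transcripts in medial intestine, 861 and 2059 in lateral intestine, 1 and 2 higher members for glucose synthesis and glycolysis, and 0 for tyrosine breakdown in lateral intestine. With TMM, the counts were 1591 higher and 1247 lower in medial and 1478 and 996 in lateral intestine, and with RLE 1368 and 1440 in medial and 1279 and 1144 in lateral intestine. DESeq2 called 2688 lower in medial and 2113 in lateral intestine, and 108 higher and 119 lower in medial than in lateral intestine. The likelihood ratio test called 2161, 1771, 85 and 99 in the same order, and without the block 1931, 1506, 47 and 128. Without a low-count filter, 75 were higher and 39 lower in medial than in lateral intestine (20 and 13 with it), and 33 were higher with only those tissues fitted. Leaving out libraries or animals gave 633 to 1359 lower transcripts in medial and 436 to 1141 in lateral intestine, 2 to 24 higher and 1 to 12 lower in medial than in lateral intestine, 3 to 5 higher members for glucose synthesis and glycolysis in each region and 0 to 1 for tyrosine breakdown in lateral intestine. The log2 difference in the ratio of FBP1 to PFKM between medial and lateral intestine ran between -0.18 and 0.10 with 1 animal left out and was positive without replicate 4. The causes of these shifts were not tested. With 4 animals, the exact tests cannot reach a p under 0.125, and transcripts with few reads in non-intestine, such as ACMSD and dd_2970, have wide errors.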
